A study of Mus musculus with 36 samples.

Results

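Trem2, Tyrobp, Fcer1g, Hcst, Syk, Plcg2 and Inpp5d encode a receptor, its signalling adaptors and the first enzymes below them, and they were followed over brain regions, genotypes, diets and sorted microglia of a mouse model of multiple system atrophy (MSA). The 7 genes were chosen by name and matched to the gene symbol at the head of the annotation, and all 7 were found among the 24940 genes of the counts table. Poly(A) RNA was sequenced from 36 libraries of male mice. In the MBP29-hα-syn line (labelled MSA) the myelin basic protein promoter drives human α-synuclein in oligodendrocytes. The bulk libraries, 30 in all, came from frozen cortex, corpus callosum and striatum of wild-type control or MSA mice that ate AIN-76A placebo chow or the same chow with PLX5622, at 1200 mg/kg. PLX5622 inhibits CSF1R, the receptor whose signalling keeps microglia alive. Feeding started at 4 weeks of age and lasted 12 weeks. There were 3 libraries per group for cortex. Corpus callosum had 3 control placebo libraries and 2 in each other group, and striatum had 3 MSA placebo libraries and 2 in each other group. A further 6 libraries were CD11b+CD45low cells sorted from forebrains at 16 weeks of age, 3 from control and 3 from MSA mice, with no diet named. The sorted controls are tagged heterozygous for the transgene and the sorted MSA libraries homozygous.

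Trem2 is a lipid- and lipoprotein-binding receptor of microglia with almost no signalling tail of its own. It pairs in the membrane with Tyrobp (DAP12), whose tail carries an immunoreceptor tyrosine-based activation motif (ITAM). Fcer1g is the ITAM adaptor of Fc receptors, and Hcst (DAP10) is a small adaptor with a motif for phosphoinositide 3-kinase instead. A phosphorylated ITAM recruits the kinase Syk, which acts on Plcg2, a phospholipase that makes second messengers. Inpp5d (SHIP1) is a lipid phosphatase that restrains the pathway.

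Bulk libraries held 4360339 to 28622744 reads assigned to genes, and sorted ones 5951129 to 12110865. The share of reads assigned was under 70% (59.5% to 66.5%) in 6 bulk libraries. In cortex these were the third placebo and the first PLX5622 control. In corpus callosum they were the third placebo control, the second PLX5622 control and the first PLX5622 MSA library, and in striatum the second PLX5622 MSA library. Labels disagree with each other in 2 places. The control striatum PLX5622 libraries carry an untreated tag beside a PLX5622 group name, and are kept here under the group name. The sorted control libraries carry a heterozygous transgene tag, whereas the protocol calls those mice wild type. No label ties a library to an animal, and p-values therefore cover only the spread seen among these libraries, part of which may be technical. A list of 10 microglial identity genes summed to 39900 to 48000 CPM, reads of a gene scaled to the assigned reads of its library, in sorted cells and to 324 to 546 CPM in placebo tissue. Neuronal markers summed to 2.35 to 6.48 CPM in the sorted cells, but choroid plexus markers to 526 to 1620 CPM. Markers of border-associated macrophages summed to 879 to 925 CPM in sorted control and 750 to 941 CPM in sorted MSA libraries. In control placebo cortex they summed to 22.8 to 33.6 CPM. The part of such macrophages in the sorted values was not tested.

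The signalling stretches that give the adaptors their roles were read from the mm10 transcripts, with the codons for tyrosine and for leucine (methionine in Hcst) in capitals. The ITAM of Tyrobp occupies coding bases 274 to 318 of 342 and lies at chr7:30415670-30417382 on the plus strand, across introns. That of Fcer1g occupies coding bases 193 to 237 of 258 at chr1:171229889-171230072 on the minus strand. Hcst has only a short tyrosine motif, coding bases 214 to 225 of 237, at chr7:30417821-30417832 on the minus strand.
Tyrobp: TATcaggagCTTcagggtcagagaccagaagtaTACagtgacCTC
Fcer1g: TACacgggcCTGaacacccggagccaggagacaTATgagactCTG
Hcst: TACatcaacATG
Both ITAM stretches are 45 bases long and hold the pair of tyrosine codons, each followed by a leucine codon, that forms the docking site for Syk.

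Tyrobp (chr7:30413788-30417579, plus strand) and Hcst (chr7:30417712-30419854, minus strand) point toward each other, and 132 bases separate their ends. The strand setting of the counting is not stated in the labels, and reads running past either end could be given to the other gene. Trem2 lies at chr17:48346401-48352276 on the plus strand, Fcer1g at chr1:171229572-171234349 on the minus strand, Syk at chr13:52583437-52648792, Plcg2 at chr8:117498275-117635142 and Inpp5d at chr1:87620312-87720510, the last 3 on the plus strand. No listed gene overlapped any of the 7. The 250 bases before each start site were searched on both strands for GAGGAA, the core bound by the myeloid factor PU.1. RefSeq promoters (GRCm38.p6) were at hand for 6 of the genes, and 2 held the motif before the start site used here, against 23.3% of the 32851 promoters searched. These are Trem2 (chr17:48346151-48346400, where the capitals are its reverse complement) and Inpp5d (chr1:87620062-87620311), both on the plus strand.
Trem2: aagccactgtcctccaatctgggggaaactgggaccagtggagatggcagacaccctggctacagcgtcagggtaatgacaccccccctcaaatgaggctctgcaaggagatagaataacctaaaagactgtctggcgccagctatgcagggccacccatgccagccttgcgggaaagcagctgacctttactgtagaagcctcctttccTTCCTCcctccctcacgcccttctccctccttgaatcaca
Inpp5d: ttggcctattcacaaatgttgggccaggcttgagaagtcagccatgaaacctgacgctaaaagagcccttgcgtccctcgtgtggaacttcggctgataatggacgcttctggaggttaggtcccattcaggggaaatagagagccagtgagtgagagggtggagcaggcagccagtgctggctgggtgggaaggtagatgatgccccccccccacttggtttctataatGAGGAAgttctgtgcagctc
A further Syk promoter, with its start site at chr13:52596882, held 1 match as well. The 23.3% covers every promoter listed, such further start sites included, whereas the count of 2 takes 1 promoter per gene. A match describes the letters only.

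In sorted microglia Trem2 and the ITAM adaptors Tyrobp and Fcer1g were the most abundant of the 7 transcripts, the enzymes were lower and the adaptor Hcst was lowest. On the authors' TPM scale, which corrects for transcript length, control microglia gave Tyrobp 1520 ± 61.7, Trem2 1300 ± 71.9 and Fcer1g 1120 ± 37.9 (SD, n = 3). Inpp5d stood at 392 ± 6.92 TPM, Plcg2 at 119 ± 3.79, Syk at 109 ± 4.47 and Hcst at 14.4 ± 0.763. The ranges of neighbours in this order did not overlap in either genotype. Hcst rested on 28 to 51 reads a library.

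**Figure D1:**
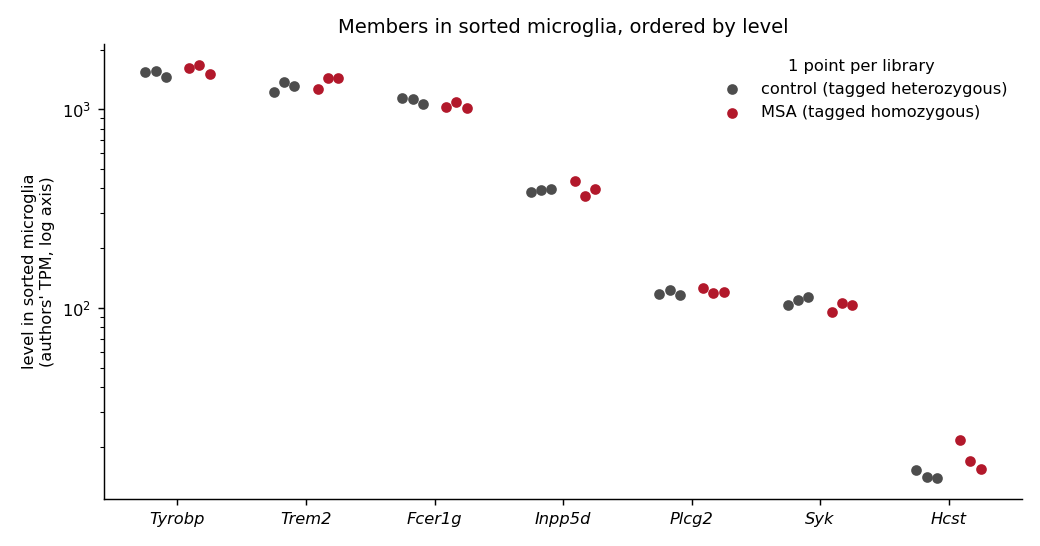
TPM (log axis) of the 7 genes in sorted microglia, 1 point per library, for 3 control and 3 MSA libraries. Tyrobp, Trem2 and Fcer1g lie between 1020 and 1680 TPM and Hcst between 13.9 and 21.7, and the points of the genotypes lie close together for every gene.

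Sorted MSA microglia carried nearly the same levels of all 7 genes as control microglia. If the heterozygous tag of these controls is right, both groups carry the transgene. By edgeR's quasi-likelihood test with Benjamini-Hochberg adjustment 0 of 7 passed 0.05, where 0.61% of the 11810 genes tested did. At an unadjusted p under 0.05 there was 1, Syk, and DESeq2 called 0. Trem2 stood at 981, 1090 and 1040 CPM in the control libraries and at 1010, 1150 and 1150 CPM in the MSA libraries. These overlap, as did Fcer1g, with 524, 514 and 486 CPM in controls against 471, 496 and 463 CPM in MSA libraries. The log2 difference, MSA minus control, was 0.05 ± 0.07 for Trem2, 0.04 ± 0.07 for Tyrobp, -0.13 ± 0.06 for Fcer1g and -0.14 ± 0.06 for Syk (SE). Hcst stood at 4.69, 4.28 and 4.21 CPM in control and at 6.64, 5.21 and 4.70 CPM in MSA libraries, a log2 difference of 0.29 ± 0.22 that rests on few reads.

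Around them, 3 of 85 tested genes of the wider pathway rose in sorted MSA microglia, where 0.61% of all 11810 genes tested passed in either direction. They were Clec7a, the β-glucan receptor dectin-1 (1.41 ± 0.15, adjusted p = 0.00311 by edgeR), and the inhibitory receptors Lilrb4a (1.76 ± 0.23, adjusted p = 0.0063 by edgeR) and Cd22 (1.13 ± 0.17, adjusted p = 0.0176 by edgeR). Apoe, a lipoprotein ligand of Trem2, gave 1.57 ± 0.21 with an edgeR adjusted p of 0.0593, and is named after its value was seen. Cd22 lies within 500 kb of Tyrobp and Hcst. It was the only gene that passed among the 36 tested that near to Tyrobp, against the same 0.61%, and its position was not tested as a cause.

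Sorted control microglia exceeded control cortex in all 7 genes, on a background where 32.1% of 14318 genes were higher. The log2 excess was 6.12 for Trem2, 6.25 for Fcer1g, 6.21 for Syk, 6.49 for Plcg2 and 6.33 for Inpp5d. Tyrobp gave 4.78 ± 0.80 and Hcst 3.21 ± 0.68. Sorted cells and tissue were prepared differently, so preparation and cell type cannot be told apart in these values. The lower Tyrobp value includes a cortex library that stood far above its group, described next.

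In placebo-fed control tissue Tyrobp, Trem2, Fcer1g and Inpp5d stood by TPM in the same order as in sorted cells. Syk, Plcg2 and Hcst were lower and changed places between regions. The mean of Hcst lay above Plcg2 in cortex and above Syk in striatum, with overlapping ranges. Cortex had Tyrobp at 54.4 ± 54.2 TPM, Trem2 at 18.7 ± 8.72, Fcer1g at 14.8 ± 4.95 and Inpp5d at 5 ± 1.71 (SD, n = 3). Syk was at 1.49 ± 0.121 TPM there, Hcst at 1.48 ± 1.29 and Plcg2 at 1.36 ± 0.708. The ranges of Tyrobp, Trem2 and Fcer1g overlapped there, while those of Fcer1g and Inpp5d, and of Inpp5d and Syk, did not. The large SD of Tyrobp came from the low-assignment library: control cortex placebo libraries had 5.72, 12.8 and 58.1 CPM. The same library was highest in Trem2 (9.08, 12.9 and 29.0 CPM), Fcer1g, Hcst and Syk. It was lowest in Inpp5d (21.9, 18.6 and 13.9 CPM) and Plcg2 (5.86, 4.53 and 2.31 CPM). Hcst never passed 0.924 CPM, or 14 reads, in a bulk library. It fell below the expression filter of every bulk fit and was not tested there.

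The regions did not separate these genes. Against cortex, corpus callosum had 0 of 6 passing (2.94% of all tested genes passed in either direction) and striatum 0 of 6 (12.9%) by edgeR. At an unadjusted p under 0.05 the counts were 0 and 1, Syk being the 1, and DESeq2 called 0 and 0. The largest differences were in striatum, at -1.45 ± 0.71 for Tyrobp and -1.17 ± 0.50 for Syk on the log2 scale (SE). Control striatum had Syk at 2.77 and 2.49 CPM, below the 4.75, 5.83 and 6.78 CPM of cortex.

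In placebo-fed mice the transgene moved none of the 6 tested genes past the threshold. By edgeR 0 of 6 passed in cortex, corpus callosum and striatum, where 0%, 0.315% and 0.00672% of all tested genes were higher, and 0 of 6 in the mean over the 3 regions, where 0.504% passed in either direction. At an unadjusted p under 0.05 the 4 counts were 0, 1, 1 and 1, and DESeq2 called 0, 0, 0 and 0. Trem2 was the gene in corpus callosum (1.05 ± 0.47, adjusted p = 0.581 by edgeR) and in striatum (0.75 ± 0.34, adjusted p = 0.999 by edgeR).

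Trem2 in corpus callosum read 18.0, 14.6 and 16.2 CPM in control placebo libraries and 38.3 and 28.3 CPM in MSA placebo libraries. Both MSA libraries lay above all 3 controls. In striatum control libraries read 15.4 and 12.6 CPM and MSA libraries 31.1, 21.0 and 18.2 CPM, again without overlap. In cortex the genotypes overlapped, with 12.7, 19.1 and 16.6 CPM in MSA libraries. Choroid plexus markers moved with genotype in corpus callosum, where their sum was 255 to 350 CPM in control placebo and 3220 to 8280 CPM in MSA placebo libraries, where 9 of 10 were higher. In MSA placebo striatum their sum reached 3910 CPM in the highest library, against 156 CPM in controls. Their part in these values was not tested.

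Inpp5d was likewise without overlap in corpus callosum and striatum, with a mean difference over regions of 0.41 ± 0.20 (adjusted p = 0.434 by edgeR). Corpus callosum gave 23.6, 18.3 and 16.6 CPM in controls and 31.7 and 30.5 CPM in MSA mice. Plcg2 there gave 4.11, 6.02 and 3.82 CPM in controls and 8.66 and 9.58 CPM in MSA mice. Both phosphatase and phospholipase were thus higher in each MSA callosum library than in any control, with adjusted p-values above 0.05. These were 0.592 for Inpp5d and 0.642 for Plcg2 by edgeR. Groups this small can separate by chance, and the share of all genes that separated in the same way is not given. The lack of overlap for Trem2, Inpp5d and Plcg2 is therefore descriptive and is not read as a genotype rise. The part of choroid plexus in the Inpp5d and Plcg2 values was not tested either.

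**Figure D2:**
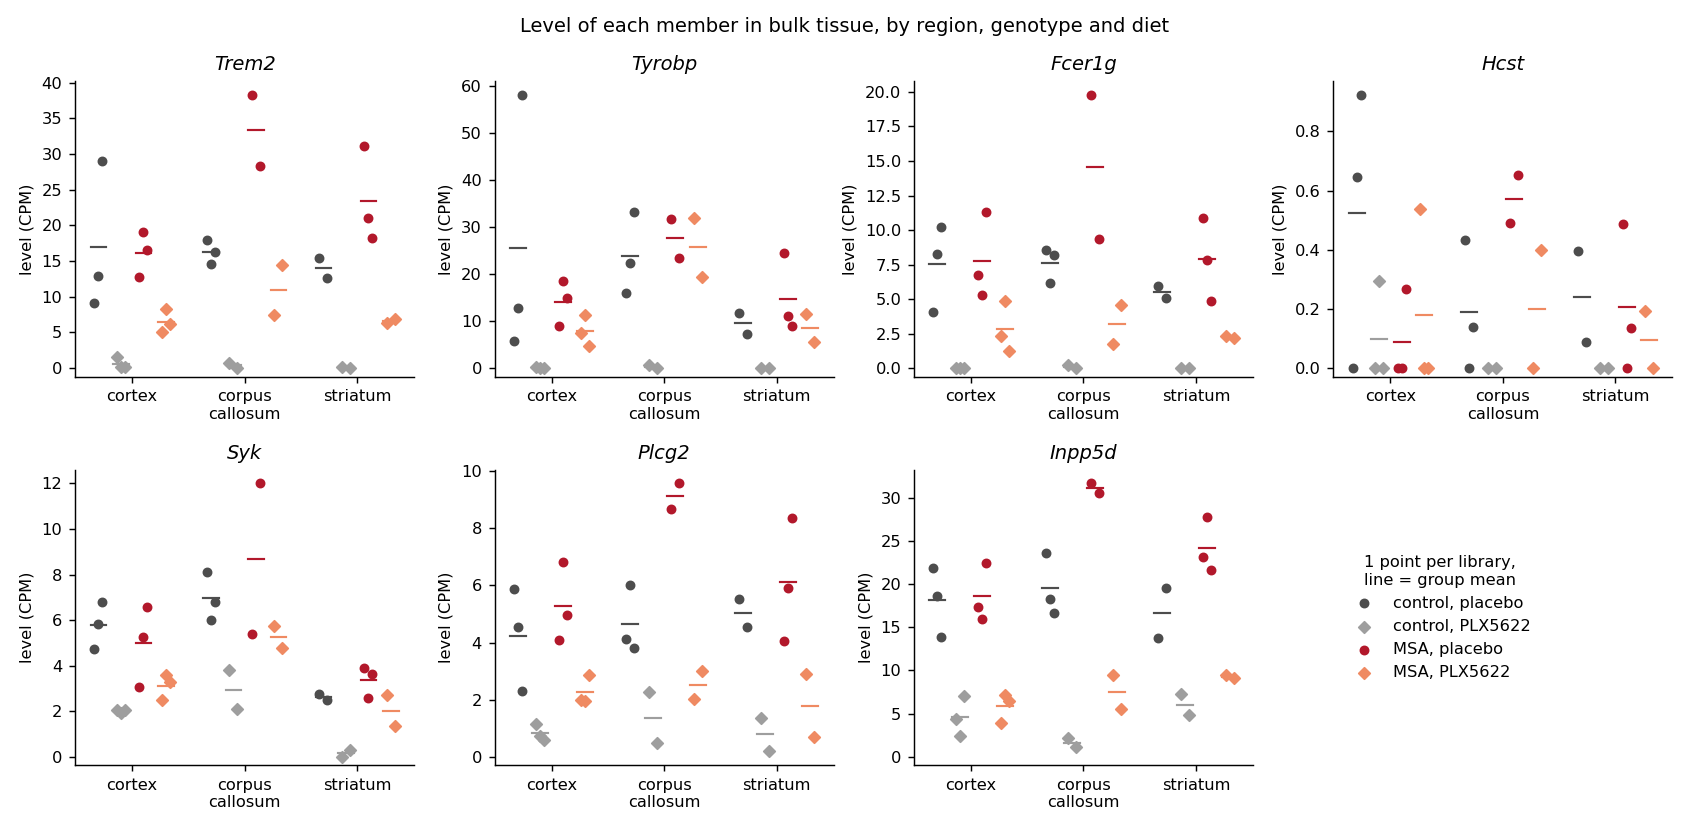
CPM of each of the 7 genes in the 30 bulk libraries, 1 point per library, by region and by genotype and diet. Control PLX5622 libraries lie at or near 0 for Trem2, Tyrobp and Fcer1g, MSA PLX5622 libraries lie above them for these 3 genes, and Hcst stays below 1 CPM.

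PLX5622 in control mice left almost no transcript of the receptor and the ITAM adaptors, and part of the transcript of the enzymes. Of the 6 tested genes, edgeR called 3 lower in cortex, 4 in corpus callosum and 3 in striatum, where 0.486%, 0.378% and 0.329% of all tested genes fell. All 6 had an unadjusted p under 0.05 in each region. In bulk tissue, fewer microglia and less RNA per microglia cannot be told apart.

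Trem2 went from 9.08, 12.9 and 29.0 CPM to 1.61, 0.148 and 0.145 CPM in cortex. It went from 18.0, 14.6 and 16.2 CPM to 0.760 and 0 CPM in corpus callosum, and from 15.4 and 12.6 CPM to 0.209 and 0 CPM in striatum. Every PLX5622 library lay below every placebo library, leaving 3.72%, 2.33% and 0.745% of the placebo mean. The fitted log2 changes of Trem2 were -4.90 ± 0.70 in cortex (adjusted p = 0.00384 by edgeR) and -5.18 ± 0.70 in corpus callosum (adjusted p = 0.0099 by edgeR). In striatum a ratio of pooled reads gave 130-fold lower Trem2, with a 95% counting interval of 35.7 to 1080 (adjusted p = 0.000206 by edgeR).

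Tyrobp fell to 0.229, 0 and 0 CPM in cortex, from 5.72, 12.8 and 58.1 CPM. In corpus callosum it fell from 15.9, 22.4 and 33.2 CPM to 0.608 and 0 CPM, and in striatum from 11.7 and 7.28 CPM to 0.104 and 0 CPM. No groups overlapped, and 0.299%, 1.28% and 0.549% of the placebo level were left. The pooled reads gave 435-fold lower Tyrobp in cortex (77.7 to 17200) and 172-fold in striatum (30.5 to 6840), as 95% counting intervals. Adjusted p-values for Tyrobp by edgeR were 0.00514, 0.0033 and 0.00388. The cortex call was lost without control PLX5622 library 2 (adjusted p = 0.0599 by edgeR), and the striatum call without control PLX5622 library 2 of that region (adjusted p = 0.0752 by edgeR).

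Fcer1g had no read in any of the 3 cortex or 2 striatum control PLX5622 libraries. Placebo levels were 4.05, 8.29 and 10.2 CPM in cortex and 5.93 and 5.06 CPM in striatum. Set against 3 reads over the group, Fcer1g was at least 44.6-fold lower in cortex (adjusted p = 0.00309 by edgeR) and at least 34.2-fold lower in striatum (adjusted p = 0.00259 by edgeR). In corpus callosum Fcer1g went from 8.54, 6.15 and 8.18 CPM to 0.228 and 0 CPM (57.1-fold, 95% counting interval 19.3 to 278, adjusted p = 0.0195 by edgeR). That call was lost without any 1 of the control placebo libraries (adjusted p up to 0.0691 by edgeR). Fitted alone, the control groups of cortex and corpus callosum gave fewer calls, as given with the processing alternatives.

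Syk and Plcg2 kept a larger share. Syk in cortex went from 4.75, 5.83 and 6.78 CPM to 2.06, 1.93 and 2.04 CPM, which left 34.7%, and corpus callosum kept 42.3%. In striatum Syk went from 2.77 and 2.49 CPM to 0 and 0.319 CPM, which left 6.08%. Plcg2 kept 19.4%, 29.6% and 15.6% in the 3 regions. PLX5622 libraries of both genes lay below all placebo libraries, yet adjusted p-values by edgeR were above 0.05 in every region (Syk in cortex -1.49 ± 0.41, 0.319, and Plcg2 in cortex -2.37 ± 0.54, 0.106). DESeq2 called Plcg2 lower in cortex (-2.40 ± 0.60, adjusted p = 0.00966 by DESeq2) and Syk lower in striatum (-4.01 ± 1.07, adjusted p = 0.0299 by DESeq2). It called neither gene in the remaining regions.

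Inpp5d went from 23.6, 18.3 and 16.6 CPM to 2.13 and 1.17 CPM in corpus callosum, a log2 change of -3.52 ± 0.40 (adjusted p = 0.00329 by edgeR). It kept 25.2% in cortex, where 21.9, 18.6 and 13.9 CPM became 4.36, 2.37 and 6.98 CPM (adjusted p = 0.0506 by edgeR). It kept 36.2% in striatum, where 13.8 and 19.5 CPM became 7.30 and 4.79 CPM (adjusted p = 0.125 by edgeR). DESeq2 called Inpp5d lower in cortex (adjusted p = 0.000531 by DESeq2) and in striatum (adjusted p = 0.0129 by DESeq2). For scale, the microglial identity genes kept 1.26%, 1.6% and 1.05%, and markers of border-associated macrophages 15%, 23.5% and 57.4%. The part of other cells in what was left of Syk, Plcg2 and Inpp5d was not tested.

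**Figure D3:**
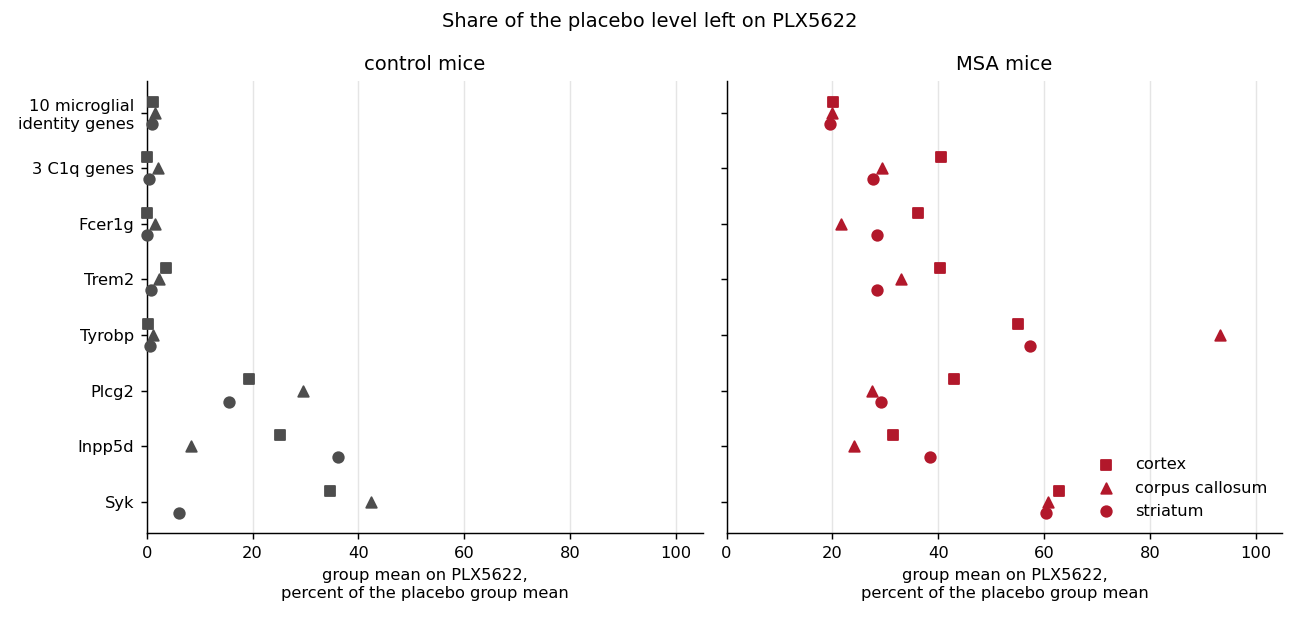
Percent of the placebo mean CPM left under PLX5622 for 10 microglial identity genes, 3 C1q genes and 6 of the 7 genes, in control and MSA mice and 3 regions. In controls Trem2, Tyrobp and Fcer1g keep 0% to 3.72%, while Syk, Plcg2 and Inpp5d keep 6.08% to 42.3%.

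In MSA mice the same diet left a larger share of Trem2, Tyrobp and Fcer1g. By edgeR 0 of 6 genes passed in each region, where 0.0548%, 0.063% and 0.074% of all tested genes fell. At an unadjusted p under 0.05 there were 4 in each region, Trem2, Fcer1g, Plcg2 and Inpp5d, and DESeq2 called 1, 3 and 2 in cortex, corpus callosum and striatum. Trem2 went from 12.7, 19.1 and 16.6 CPM to 5.03, 8.23 and 6.23 CPM in cortex. Corpus callosum went from 38.3 and 28.3 CPM to 7.44 and 14.4 CPM, and striatum from 31.1, 21.0 and 18.2 CPM to 6.37 and 6.92 CPM. No groups overlapped, and 40.3%, 32.9% and 28.4% of Trem2 were left.

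Tyrobp was lowered less than Trem2. It went from 8.92, 18.6 and 14.9 CPM to 7.36, 11.3 and 4.70 CPM in cortex, from 31.7 and 23.5 CPM to 32.0 and 19.4 CPM in corpus callosum, and from 24.4, 11.0 and 8.91 CPM to 11.4 and 5.56 CPM in striatum. The diets overlapped in all 3 regions, and 55.1%, 93.2% and 57.4% were left. In corpus callosum the log2 change was -0.24 ± 0.49 (SE). The highest corpus callosum and striatum PLX5622 values, 32.0 and 11.4 CPM, belong to the 2 libraries with under 70% of reads assigned.

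Fcer1g, the other ITAM adaptor, kept 36.1%, 21.7% and 28.5%, closer to Trem2 than to Tyrobp. In corpus callosum it went from 19.8 and 9.36 CPM to 1.75 and 4.58 CPM. Syk kept 62.8%, 60.7% and 60.3%, with overlapping diets in all 3 regions, for example 3.07, 5.28 and 6.57 CPM against 2.51, 3.58 and 3.27 CPM in cortex. Plcg2 kept 42.9%, 27.5% and 29.2%. Inpp5d kept 31.5%, 24% and 38.5%, with 31.7 and 30.5 CPM going to 9.41 and 5.48 CPM in corpus callosum. The identity genes kept 20.1%, 19.9% and 19.6% and the C1q genes 40.6%, 29.4% and 27.6%.

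Under PLX5622, Trem2 and Tyrobp were higher in MSA than in control corpus callosum, and Trem2, Tyrobp and Fcer1g in striatum. By edgeR 0 of 6 genes were higher in MSA cortex, 2 in MSA corpus callosum and 3 in MSA striatum, where 0.151%, 0.189% and 0.188% of all tested genes were higher. In cortex 4 had an unadjusted p under 0.05, and DESeq2 called 3. Trem2 in corpus callosum was 7.44 and 14.4 CPM against 0.760 and 0 CPM in controls, a log2 difference of 4.52 ± 0.72 (adjusted p = 0.042 by edgeR), which was lost without MSA PLX5622 library 3 (adjusted p = 0.163 by edgeR). Tyrobp there was 32.0 and 19.4 CPM against 0.608 and 0 CPM (adjusted p = 0.00639 by edgeR).

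In striatum Trem2 was 6.37 and 6.92 CPM in MSA against 0.209 and 0 CPM in control mice (5.79 ± 0.65, adjusted p = 0.00207 by edgeR). Tyrobp was 11.4 and 5.56 CPM against 0.104 and 0 CPM (adjusted p = 0.00823 by edgeR), and Fcer1g 2.32 and 2.17 CPM against 0 and 0 CPM (adjusted p = 0.022 by edgeR). With any 1 of the 4 libraries left out the Fcer1g call was lost, and so was that of Tyrobp in 3 of the 4 cases, MSA PLX5622 library 3 being the exception. In cortex the groups of Trem2, Tyrobp and Fcer1g did not overlap either, with Fcer1g at 2.33, 4.83 and 1.23 CPM in MSA mice and at 0 in all 3 control libraries (adjusted p = 0.0503 by edgeR).

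The difference between genotypes in their response to the diet was tested as an interaction. Averaged over the 3 regions it passed for 3 of 6 genes, where 0.336% of the 16080 genes tested were higher. The log2 interaction was 4.03 ± 0.58 for Trem2 (adjusted p = 0.000189 by edgeR), 6.56 ± 0.82 for Tyrobp (adjusted p = 4.17e-05 by edgeR) and 5.95 ± 0.83 for Fcer1g (adjusted p = 0.000227 by edgeR). The fitted sizes of all 3 rest on control PLX5622 libraries with 0 or few reads (at most 10 for Trem2) and are no bounds. Syk gave 1.45 ± 0.44 (adjusted p = 0.223 by edgeR), Plcg2 0.55 ± 0.52 and Inpp5d 0.56 ± 0.30. All 3 calls held with each of the 30 libraries left out in turn, over which Trem2 ranged from 3.73 to 5.69. Regions of 1 mouse may be among these libraries, which the fit treats as separate. With each replicate number of a genotype and diet left out of all regions at once, an alternative chosen after the data were seen, the 3 calls held in 12 of 12 fits, with edgeR adjusted p up to 0.00439 and Trem2 from 3.29 to 7.35. Of the 10 microglial identity genes, 9 passed the same interaction, with a median of 4.82 over the 10, so the pattern was not particular to Trem2, Tyrobp and Fcer1g.

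Region by region the interaction was less firm. It passed for 0 of 6 genes in cortex (0.0959% of all tested genes higher), Tyrobp in corpus callosum (0.0945%) and Trem2 in striatum (0.0874%). In cortex 3 had an unadjusted p under 0.05 by edgeR and DESeq2 called 3. The Tyrobp value in corpus callosum was 5.80 ± 0.85 (adjusted p = 0.0197 by edgeR). It was lost without control placebo 2 or 3, MSA placebo 1 or 2 or MSA PLX5622 1, with adjusted p up to 0.133 by edgeR. Choroid plexus markers moved the other way in that interaction (8 of 10 lower), and their part was not tested. The Trem2 value in striatum was 5.03 ± 0.77 (adjusted p = 0.0385 by edgeR), and leaving out any of the 9 libraries but MSA placebo 1 ended that call, with adjusted p up to 0.241 by edgeR. The size moved to 7.92 without control PLX5622 1. In corpus callosum, leaving out control PLX5622 1 moved Trem2 from 3.46 to 9.10 and brought it past the threshold (adjusted p = 0.00914 by edgeR).

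**Figure D4:**
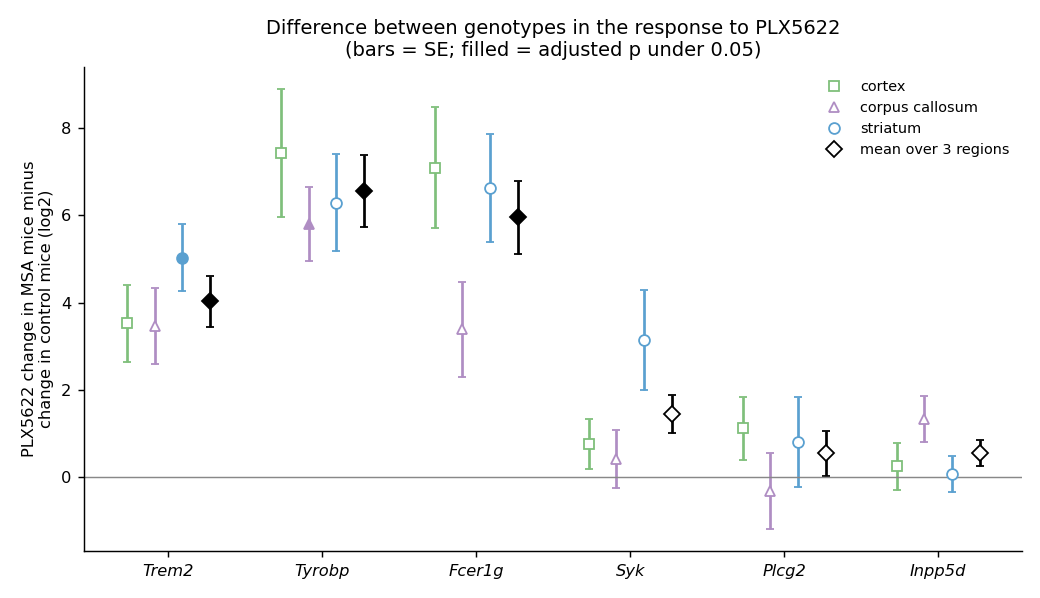
Log2 interaction of genotype and diet, with its SE, for 6 genes in cortex, corpus callosum, striatum and the mean over them. Filled points have an edgeR adjusted p under 0.05: Trem2, Tyrobp and Fcer1g in the mean, Tyrobp in corpus callosum and Trem2 in striatum.

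Dividing each gene by the summed reads of the identity list in the same library compares it with the microglial transcripts that remained, as far as its own reads are microglial. In control PLX5622 cortex, where the identity genes kept 1.26%, Syk stayed at 2.01 CPM and Inpp5d at 4.57 CPM. MSA PLX5622 cortex had 3.12 and 5.85 CPM. Trem2 and Tyrobp fell to 0.633 and 0.0764 CPM in those control libraries, and Syk to 0.16 CPM in control striatum. The part of other cells in the ratios was not tested. Within MSA mice the ratios of Trem2, Tyrobp, Syk and Inpp5d were higher under PLX5622. The mean log2 rise over regions was 0.76 for Trem2, 1.75 for Tyrobp and 1.68 for Syk, each with an adjusted p of 0.00583 by a 2-sided exact permutation test within regions. Inpp5d rose by 0.62 (adjusted p = 0.0262, exact permutation), a call lost without MSA corpus callosum placebo 1 or PLX5622 1 or MSA striatum PLX5622 2. The values for Fcer1g (0.49, adjusted p = 0.145), Hcst (1.37, 0.145) and Plcg2 (0.66, 0.139) did not pass the exact permutation test. The smallest p that the 1200 arrangements allow is 0.000833, and adjustment was over the 7 genes, which were chosen with results known. The permutation treats the regions as separate. Libraries of different regions may come from the same mouse, and these p-values would then be too small.

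Tyrobp stood at 25.5, 43.8 and 27.2 reads per 1000 identity reads in MSA placebo cortex and at 81.5, 121 and 57.9 under PLX5622. Corpus callosum went from 61.9 and 54.7 to 361 and 196. Striatum went from 55.7, 28.0 and 22.8 to 193 and 55.2, where 1 placebo library lay just above the lower PLX5622 library. Sorted microglia held 11.8 to 15.2, below every one of these libraries. Syk went from 8.79, 12.5 and 12.0 to 27.8, 38.4 and 40.3 in cortex, without overlap.

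The choice of denominator set which ratios stood. Per C1q read, Tyrobp (1.06, adjusted p = 0.0233, exact permutation) and Syk (0.98, adjusted p = 0.00583, exact permutation) still rose, while Trem2 gave 0.06 (0.904) and Inpp5d -0.08 (0.915). An alternative chosen after the data were seen first took off the control PLX5622 level of the region, with results under 0.1 CPM set to 0.1 CPM. Syk then gave 1.33 (adjusted p = 0.0175, exact permutation) and Inpp5d -0.61 (0.413), and Hcst passed (1.91, adjusted p = 0.0136, exact permutation). Hcst had 0 reads in several of these libraries of both diets, so its value rests on that floor and is not read as a rise. With 0.1 count added instead, Hcst gave 0.87 (adjusted p = 0.545, exact permutation). In placebo mice the ratio per identity read passed for 0 of 7 genes between genotypes by the exact permutation test, with 0 at an unadjusted p under 0.05, and per C1q read Syk passed as lower in MSA mice (-0.59, adjusted p = 0.0315, exact permutation).

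**Figure D5:**
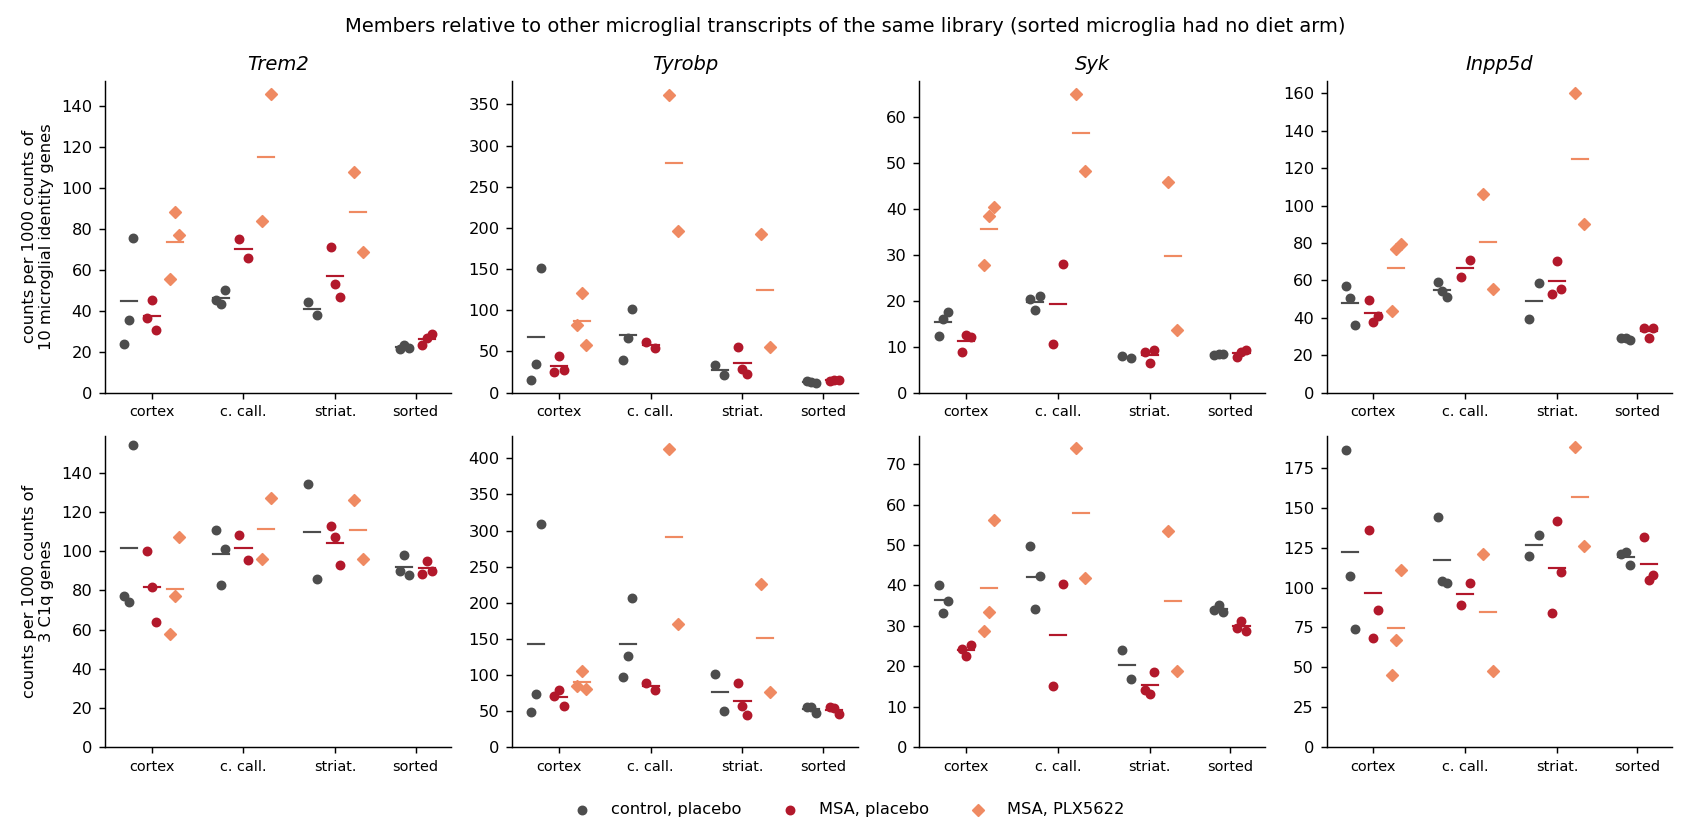
Reads of Trem2, Tyrobp, Syk and Inpp5d per 1000 identity reads (top) and per 1000 C1q reads (bottom), 1 point per library and a short line at each group mean, in control placebo, MSA placebo, MSA PLX5622 and sorted libraries. Tyrobp and Syk are higher in most MSA PLX5622 than MSA placebo libraries in both rows, whereas Trem2 and Inpp5d are higher in the top row and not in the bottom row.

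Markers of blood myeloid cells moved with Tyrobp in some groups and not in others. Of the 10 listed, 3 passed the expression filter over all bulk libraries and 1 rose in the interaction averaged over regions. The monocyte and neutrophil list without Csf3r, which sorted microglia carried at 982 to 1150 CPM, summed to 1.44, 9.3 and 0.817 CPM in MSA PLX5622 cortex, 4.76 and 2.09 CPM in corpus callosum and 1.35 and 0.136 CPM in striatum. In MSA placebo libraries the sums were 0, 0 and 0.134 CPM, 1.47 and 1.31 CPM, and 1.14, 0.32 and 0.135 CPM. Within each region the MSA PLX5622 library with the highest Tyrobp had the highest sum, and the control cortex placebo library with 58.1 CPM of Tyrobp had the highest of its group, at 5.55 CPM against 0.698 and 1.55 CPM. The library with the highest Tyrobp also had the highest sum in MSA placebo callosum and striatum. It did too in control PLX5622 cortex and striatum, where Tyrobp had at most 1 read a library. Sums and Tyrobp went apart in other comparisons. Control PLX5622 cortex held 2.75, 2.22 and 1.31 CPM of the list with Tyrobp at 0.229, 0 and 0 CPM, and the control PLX5622 callosum library without a Tyrobp read held 2.45 CPM. In control placebo callosum and striatum the library with the highest Tyrobp did not have the highest sum. The part of these cells, and of the low share of assigned reads, in the Tyrobp values was not tested. Without the low-assignment libraries the ratio per identity read rose by 1.31 for Tyrobp and 1.32 for Syk (adjusted p = 0.0194 each, exact permutation).

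The wider pathway was followed in 110 measured genes: ligands and sheddases, receptors that use these adaptors, kinases, effectors and inhibitors. In control mice PLX5622 lowered 8 of the 78 tested in cortex, with 12 of 87 passing in corpus callosum and 6 of 81 in striatum, against 0.486%, 0.378% and 0.329% of all genes tested. The median over the 78 was -0.23 in log2 against 0.02 over all genes in cortex. Among receptors of Tyrobp or Fcer1g, Siglech (-6.32) and Fcgr3 (-6.36) fell in cortex, with Fcgr1, the high-affinity IgG receptor, at -3.34. Of the effectors, Nckap1l, a part of the actin-regulating WAVE complex, fell by 2.88, and the phosphoinositide kinase subunit Pik3cg fell by 5.74. In corpus callosum the Src-family kinase Lyn (-3.84) and the phosphatase Ptprc (-4.48) fell as well. In MSA mice Laptm5, a lysosomal regulator of immune receptors, fell in cortex (-2.44) and striatum (-2.37).

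The interaction averaged over regions was higher for 9 of 87 pathway genes, against 0.336% of all genes tested: Fcgr3, Siglech, Fcgr2b, Ms4a6d, Vav1, Was, Pik3cg, Laptm5 and Cd33. These span receptors, effectors and inhibitory receptors. Placebo and PLX5622 control libraries enter several of these comparisons at once, so the comparisons share their samples.

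Across the 30 bulk libraries the 3 genes most like Trem2 in level, of 16080, were C1qa (Pearson r 0.98), Ctss (0.97) and Cx3cr1 (0.97). Those most like Tyrobp were Ly86 (0.98), Fcgr3 (0.97) and C1qa (0.96), and those most like Fcer1g were Bin2, P2ry13 and Ctss (0.98 each). Inpp5d was nearest to Slco2b1 (0.94), Kcnk6 (0.91) and Itgam (0.88), and Plcg2 to Vsir (0.90), Pld4 (0.89) and Cd37 (0.89). Syk had the weakest neighbours, Sash3 (0.81), 0610040J01Rik (0.81) and Cyth4 (0.79). Trem2 and Tyrobp gave 0.95 with each other, and Syk and Inpp5d 0.45. These libraries share the diet contrast, so the correlations describe it and carry no test.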

How the data were processed

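Poly(A) RNA was measured in 36 libraries. Reads were aligned with STAR, counted and annotated with HOMER and compared with DESeq2 on mm10, per the submitters' processing notes; no source used here gives versions, strand setting or filters. The values used are the authors' deposited raw read counts per gene, and the authors' TPM, which serve only to compare genes within a group. CPM was computed from the counts and their total per library. Tests used edgeR 4.0.16 in R 4.3.3: trimmed mean normalization, a filter on expression with a minimum count of 10, a robust quasi-likelihood fit and Benjamini-Hochberg adjustment over all genes tested, with 0.05 as threshold. Each region was fitted on its 4 groups, and regions and averages on all 30 bulk libraries. SE is the log2 change divided by the root of F. Ratios added 0.5 count and were tested by exact permutation of libraries within regions. Intervals and floors (3 counts) cover counting error only. The tests were checked on simulated data. No 2 libraries of a group were copies (chi-square per degree of freedom 4.67 to 133).

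The 7 genes, the pathway lists and the marker lists were chosen with earlier results of these data known. Named beyond the 7 were pathway genes past the threshold, first by p-value within a list, and the 3 genes most like each in level over bulk libraries. Alternatives were DESeq2 1.42.0, its size factors, no filter, the replicate number as a block, 2 groups alone, another denominator, leaving out libraries with under 70% of reads assigned, leaving out each library and, added later, each replicate number over all regions.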

Additional observations from a re-analysis of the deposited data

Results flagged for a closer look

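The response to PLX5622 differed between control and MSA mice by a test of the difference itself for Trem2, Tyrobp and Fcer1g. In the mean over 3 regions the fitted log2 interaction was 4.03 for Trem2, 6.56 for Tyrobp and 5.95 for Fcer1g. Within single regions it was 5.80 for Tyrobp in corpus callosum and 5.03 for Trem2 in striatum. With 1 library left out at a time, the Tyrobp call held in 4 of 9 fits and the Trem2 call in 1 of 9. The fitted sizes rest on control PLX5622 libraries with 0 or few reads. Of the 10 microglial identity genes, 9 passed the same averaged test, with a median of 4.82 over the 10. All 5 values above are differences of log2 changes, positive where MSA mice kept more transcript.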

How the results depend on the processing

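With 1 library left out at a time, 1140 single-gene values, totalled over all genes and comparisons, stayed on their side of the threshold. A further 29 lost it and 14 gained it. No value past the threshold changed direction, but some values short of it did. The Plcg2 interaction in corpus callosum, for example, went from -0.31 to 1.37 without control PLX5622 1. The 3 averaged interactions stayed past the threshold in all 30 refits. Counts of the 6 tested genes that passed changed by over 1.5 times as follows, with the cause not tested. PLX5622 in control mice: cortex 5 with DESeq2 and 0 with 2 groups alone (3 reported), corpus callosum 2 with 2 groups alone (4 reported), striatum 5 with DESeq2 (3 reported). PLX5622 in MSA mice (0 reported): cortex 1 with DESeq2; corpus callosum 3 with DESeq2 and 1 each with no filter, without low-assignment libraries and with 2 groups alone; striatum 2 with DESeq2 and 2 with no filter, and 0 to 2 leaving out a library. MSA against control under PLX5622: cortex (0 reported) 3 with DESeq2, 1 with its size factors, 2 with no filter, 2 without low-assignment libraries, 1 with 2 groups alone and 0 to 1 leaving out a library; corpus callosum (2 reported) 4 with DESeq2, 4 with no filter, 0 with 2 groups alone and 1 to 2 leaving out a library; striatum (3 reported) 1 without low-assignment libraries and 1 to 2 leaving out a library. On placebo, corpus callosum had 1 with 2 groups alone. Interaction: cortex (0 reported) 3 with DESeq2, 1 without low-assignment libraries, 0 to 1 leaving out a library; corpus callosum (1 reported) 2 with DESeq2, 2 without low-assignment libraries, 0 to 2 leaving out a library; striatum (1 reported) 2 with DESeq2, 3 with no filter, 0 without low-assignment libraries, 0 to 2 leaving out a library. Ratios: per C1q read 2 passed under PLX5622 (4 reported) and 1 on placebo (0 reported, 0 to 1 leaving out a library). The Inpp5d ratio reversed to -0.08 per C1q read and to -0.61 with the control level taken off.

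Smaller changes: Inpp5d passed in control cortex with DESeq2's size factors (adjusted p = 0.0491, edgeR) and with no filter (0.0184), Fcer1g was lost between genotypes in PLX5622 striatum with 2 groups alone (0.112), and Syk passed in the averaged interaction without control striatum PLX5622 2 (2.70, 0.0431).

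Same-numbered libraries of different groups did not deviate together in every pair (correlations over 0.1 in 6 of 18 cortex pairs, 1 of 10 callosum pairs and 5 of 10 striatum pairs), so the numbers were not taken to pair the groups. Between regions of 1 genotype and diet, 12 of 25 same-numbered pairs were over 0.1 (median 0.10, against -0.07 for other numbers), and shared mice cannot be told from these values. With the replicate block the counts were 1 (PLX5622 in control corpus callosum), 0 (MSA against control there under PLX5622), 0 (its interaction), 2 (PLX5622 in MSA striatum) and 2 (striatum interaction), and Syk passed between genotypes in PLX5622 striatum (0.0492). Depth limits Hcst in tissue and the size of changes against 0 reads. With 2 or 3 libraries a group, 1 library can end a regional call.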
